A study of Rattus norvegicus with 2 samples.

Results

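The genes described here build, route and fuse the membrane vesicles that carry proteins through the secretory and endocytic pathways. Members were all probe sets of the array whose single annotated gene symbol begins with Rab, Arf, Vamp, Stx, Snap, Vps, Sec, Cop or Trappc followed by a digit, or is one of the Copa, Copb, Copg and Copz coat genes. The rule uses names alone and no measured value. It found 112 of 8740 probe sets, which name 76 of 4736 genes. RNA had been extracted from first- and second-order branches of the small mesenteric arteries, the muscular vessels that feed the gut, of rats. The control group had a sham operation, and the other group had prehepatic portal hypertension from partial ligation of the portal vein. Each group, called sham and ligated below, was 1 RNA pool from 20 rats read on 1 Affymetrix RG_U34A array, and the labels used here give no strain, age, sex or time after the operation.

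Proteins for secretion enter the endoplasmic reticulum through the Sec61 channel and leave it in COPII-coated vesicles, and COPI-coated vesicles return material from the Golgi. Small GTPases of the Arf and Rab families switch on at a given membrane, recruit coats, tethers and motors, and so mark which vesicle goes where. Fusion is carried out by SNARE proteins: a VAMP on the vesicle zips up with a syntaxin and a SNAP-family protein on the target membrane. Internalised cargo passes through early endosomes and is either recycled or sent to lysosomes, with Vps complexes acting at those steps. In a vessel wall these routes deliver receptors, channels, matrix proteins and integrins to and from the surface of smooth muscle and endothelial cells.

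With 1 array per group there was no replicate spread and no test, and each value below compares 2 pools. A probe set was called measured when its signal lay above a floor of 330.9 intensity units in both pools, and bounded when it did so in 1 pool only, which gives the least change its ratio can have. Across all genes the scatter between measured probe sets of 1 gene, an SD of 0.30 on the log2 ratio, is the only yardstick of error in these files, and it leaves out differences between rats. The noted amount of labelled cRNA, written with a question mark, was 17 µg on the sham and 12.5 µg on the ligated side, and the fluidics modules differed too, so neither can be told apart from the operation. Smooth muscle markers were present, with all 8 of the 8 on the array having a value, while 8 of 10 exocrine pancreas markers lay below the floor in both pools. Of the 8 endothelial markers on the array, 6 had a value, while Kdr and Vwf lay below the floor in both pools. In whole arteries, fewer cells of a type and less RNA per cell cannot be told apart.

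The vesicle trafficking genes differed little between the pools. Of the 112 probe sets, 79 were measured, 7 were bounded and 26 stayed below the floor, so 65 of the 76 genes had a value. The log2 ratio of ligated over sham had a median of 0.00 over these 65 genes, beside -0.02 over all 3351 genes with a value. Of the 65, 33 had a ratio above 0 and 32 below 0, and 53.2% of all genes with a value were below 0. The SD of the ratio was 0.29 over the 79 measured member probe sets and 0.35 over all 4960 measured probe sets. By gene, with bounds included, the SDs were nearly alike, at 0.33 over the 65 genes and 0.34 over all 3351.

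At a threshold of 1.5-fold, 1 of the 79 measured probe sets was higher in ligated arteries, where 3.1% of all measured probe sets were. On the lower side there were 3 of 79, or 3.80%, where 5.38% of all measured probe sets were lower. Neither of these shares exceeded its background. By gene, with bounds included, 2 of 65 (3.08%) were higher and 4 (6.15%) lower by 1.5-fold, beside 3.13% and 5.04% of all genes with a value, so the lower share was slightly above it; the fourth lower gene, Vps39, and the second higher gene, Vamp5, rest on bounds. The higher one was Rab13 and the lower ones were Trappc3, Stx7 and Stx1a, and 0 of the 79 reached 2-fold, while 1.35% of all measured probe sets did. Among the 49 measured members at or above the median level of all measured probe sets, 1 was higher and 1 lower by 1.5-fold, beside 2.3% and 3.27% of all measured probe sets in that range. Among the 30 below that level, 0 were higher and 2 lower, beside 3.91% and 7.5% of all measured probe sets in that range.

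**Figure D1:**
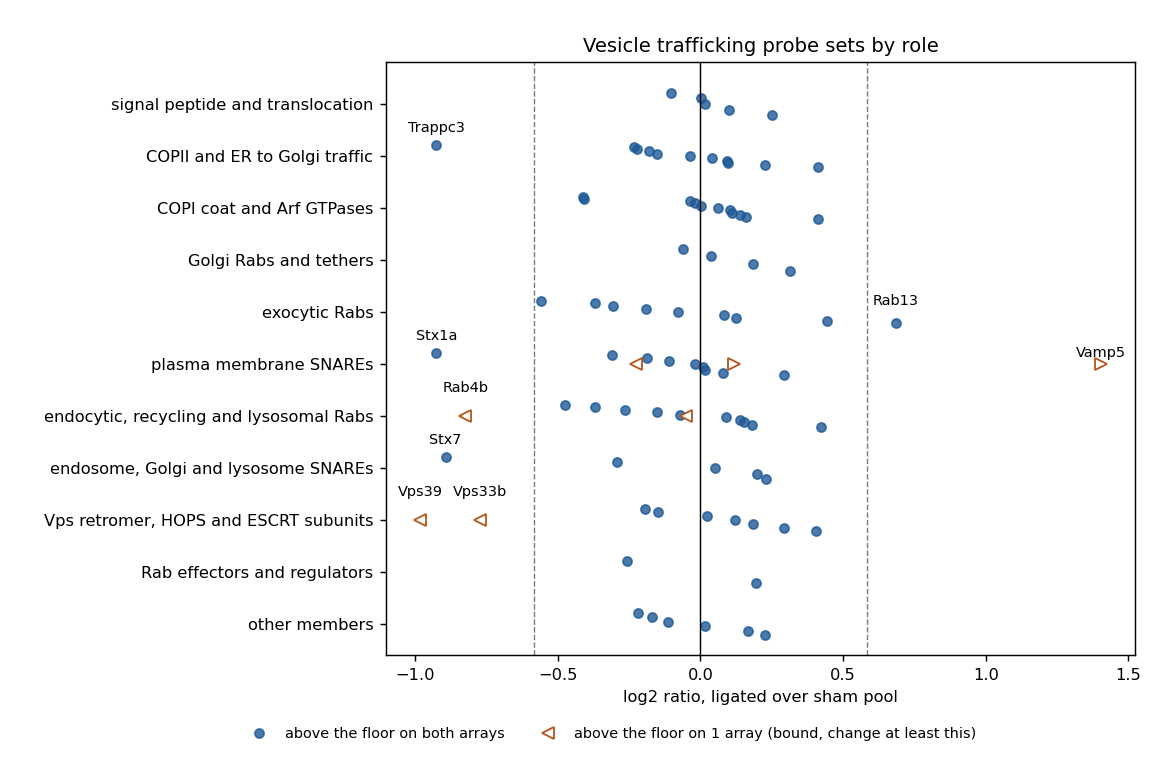
Log2 ratio of ligated over sham for each member probe set (x axis), by role in vesicle traffic (y axis). Filled circles are the 79 measured probe sets, open triangles the 7 bounded ones pointing the way the change could be larger, and dashed lines mark 1.5-fold. Most points lie between the lines in each role, and the labelled genes lie outside them.

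**Figure D2:**
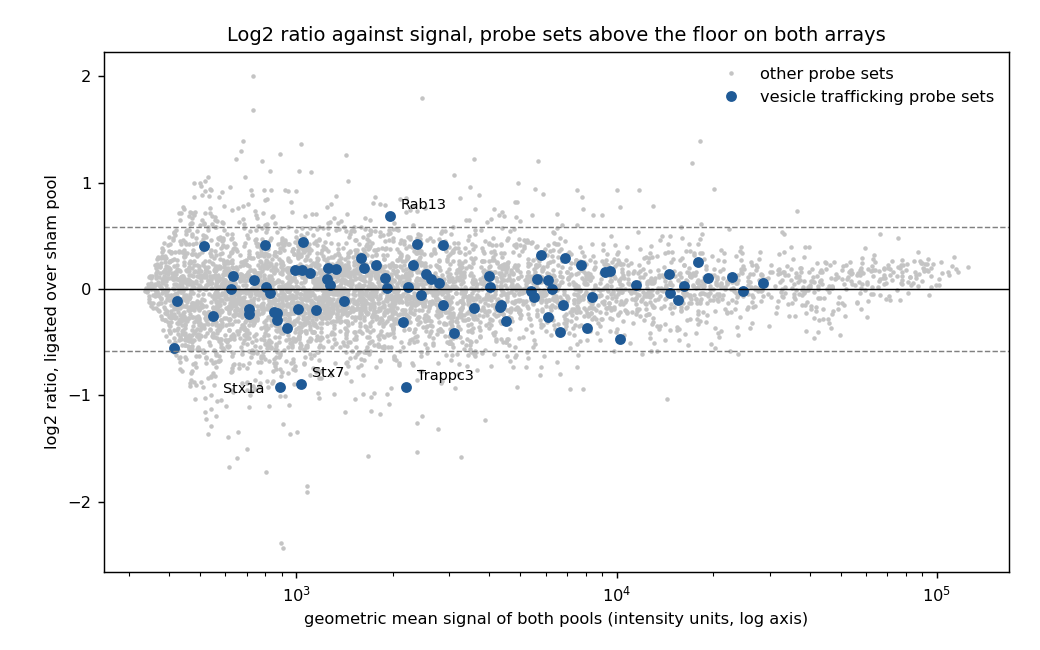
Log2 ratio of ligated over sham (y axis) against the geometric mean signal of both pools in intensity units (log x axis). Blue points are the 79 measured member probe sets, grey points the other measured probe sets, and dashed lines mark 1.5-fold. The members lie within the cloud of other probe sets, with Rab13 above and Trappc3, Stx7 and Stx1a below the lines.

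The steps were then compared by role. Over the 42 genes of the secretory steps with a value, from entry into the endoplasmic reticulum to the plasma membrane, the median log2 ratio was 0.03, with 22 above and 20 below 0. Over the 17 genes of the endocytic steps, the endosomal and lysosomal Rabs, SNAREs and Vps subunits, it was -0.03, with 8 above and 9 below 0. The sign of the endocytic median turned under several alternatives. It was 0.01 after loess normalization and 0.04 with the floor at the 60th percentile. On the probe set of highest level, without shared or incomplete probe sets, and with measured probe sets alone, it was 0.02. The medians of the 10 role groups ran from -0.05 in both the exocytic and the endocytic Rabs to 0.11 in the Golgi group, all smaller than the scatter between probe sets of a gene. The signs of the COPI, COPII, Vps, exocytic Rab, effector and endosomal SNARE medians turned under at least 1 of 2 other scalings, and those of the endocytic Rabs and the plasma membrane SNAREs turned under other settings. The endocytic Rab median was 0.07 with measured probe sets alone and -0.32 with a floor at percentile 20, and that of the plasma membrane SNAREs was 0.03 without shared probe sets. No direction is given for these 8 groups or for the endocytic set as a whole.

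By family, a grouping chosen after the values were seen, the syntaxins had the lowest median. Of 8 syntaxin genes 6 had a value, 5 of them below 0, with a median log2 ratio of -0.25, which lay between -0.25 and -0.15 under the 8 alternatives. Of the 6, 2 (33.3%), Stx1a and Stx7, were at least 1.5-fold lower, where 5.04% of all genes with a value were. Stx1a rests on a probe set marked as incomplete, and the family median was -0.15 with shared or incomplete probe sets left out. The ratio of Stx12, one of the 5, was close to 0 and changed sign after quantile normalization and after the loess. The 6 genes act at different membranes and are described with their roles below.

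Genes of entry into the endoplasmic reticulum were nearly alike in both pools, and 0 of 4 reached 1.5-fold in either direction. Over all genes with a value 3.13% were that much higher and 5.04% lower, so 0 in so small a group says little about the step. Sec61b, a small subunit of the translocation channel, had a signal of 16418 in sham and 19528 in ligated arteries, a log2 ratio of 0.25. Sec61a1, which encodes the pore-forming subunit, had 799 and 808, a ratio of 0.02. Sec62, which helps load finished precursors into the channel, was slightly lower, with 16087 and 14960 (log2 ratio -0.10). Sec11a, the catalytic subunit of the signal peptidase, had 18675 and 20022 on the brighter of its 2 probe sets and 6255 and 6263 on the other. Each of these ratios lay within the scatter between probe sets of a gene.

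Of the 9 genes of COPII coats and traffic from the endoplasmic reticulum to the Golgi, Trappc3 stood alone past the threshold. Trappc3 encodes a core subunit of the TRAPP complex, the tether and Rab1 activator that receives COPII vesicles. Its signal was 3023 in sham and 1591 in ligated arteries, a log2 ratio of -0.93 or 1.90-fold lower. This rests on 1 probe set whose identifier marks it as shared between transcripts, and no other probe set of the gene was on the array to compare it with.

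The other TRAPP subunits did not go with Trappc3. Trappc1 had 11364 and 11683 for sham and ligated arteries, Trappc6b had 5468 and 5839, and Trappc10 had 1208 and 1289. Their log2 ratios were 0.04, 0.09 and 0.09, each inside the scatter between probe sets of a gene. Trappc14 was below the floor in both pools.

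Sec31a, the outer cage protein of the COPII coat, was higher on both measured probe sets, from 1633 to 1911 and from 693 to 922, with log2 ratios of 0.23 and 0.41. Both carry identifiers of the kind set aside as shared or incomplete, and the gene had no value without them. Its remaining probe set lay below the floor in both pools. Stx5, the Golgi syntaxin with which COPII vesicles fuse, was lower on both measured probe sets, with 4576 and 4119.8 on one and 769.8 and 655 on the other, ratios of -0.15 and -0.23. Sec22a, a relative of the vesicle SNARE Sec22b, had 941 and 806 (-0.22). Rab1a, the GTPase of this step, had 3822 and 3369.7 (-0.18), and Rab2a had 836 and 815 (-0.04). None of these reached 1.5-fold.

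Arf GTPases, which recruit coats to the Golgi and the cell surface, and COPI subunits gave 0 of 9 genes past 1.5-fold. The shares of all genes with a value were again 3.13% higher and 5.04% lower. Arf1, the main Golgi Arf, had a signal of 14846 in sham and 14483 in ligated arteries, a log2 ratio of -0.04. Arf4 had 27949 and 29144 (0.06, which turned to -0.01 after quantile normalization), and Arf5 had 5452 and 5384 (-0.02). Arf6, which works at the plasma membrane and in recycling, had 1822 and 1956 (0.10). These 4 Arf genes were nearly level between the pools, and Arf3 was below the floor in both. Arf2 had 3586 and 2692 on one probe set, a ratio of -0.41, and 622 and 623 on the other, so its probe sets did not agree.

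Among COPI subunits, Copz2, an isoform of the zeta subunit, had the highest ratio of the group, with 2491 in sham and 3314 in ligated arteries (0.41). Its paralog Copz1 had 21992 and 23736 (0.11), and Copb1, the beta subunit, had 8668 and 9688 (0.16). Copb2, the beta-prime subunit, gave opposite ratios on its 2 probe sets. It had 13889.7 and 15298 on one, a ratio of 0.14, and 7662 and 5772 on the other, which is marked as shared, a ratio of -0.41. Its direction was therefore not settled.

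The 4 genes placed at the Golgi lay between log2 ratios of -0.06 and 0.32. Rab6a, which directs transport within and from the Golgi, was highest, with 5189 in sham and 6457 in ligated arteries. Vps52, a subunit of the tether that receives vesicles returning from endosomes, had 1249 and 1420.3 (0.19). Rab33b, a Golgi Rab also linked to autophagy, had 1257 and 1291 (0.04), and Rab34 had 2497 and 2395 (-0.06). Each of the 2 latter genes had another probe set below the floor in both pools.

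The exocytic Rabs went both ways and held the only measured member that was 1.5-fold higher. Rab13, which moves vesicles to cell junctions and to the surface, had a signal of 1544 in sham and 2482 in ligated arteries, a log2 ratio of 0.69 or 1.61-fold higher, on its only probe set. Rab3b, of the regulated secretion Rabs, had 900 and 1224 (0.44) on 1 probe set, marked as shared or incomplete, and was below the floor on its other one. On the lower side Rab27a, which docks secretory granules and lysosome-related organelles, had 503 and 342, a ratio of -0.56 that lies just inside the threshold, and its ligated signal was close to the floor.

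The remaining exocytic Rabs lay nearer to 0. Rab8b and Rab8a, which serve transport from the Golgi to the surface, had log2 ratios of -0.37 (1066 and 824) and -0.19 (1079 and 946). Rab10, of insulin-stimulated and basolateral delivery, had 8605 and 8153 on one probe set and 5012 and 4057 on the other, ratios of -0.08 and -0.31. Rab26 and Rab3d, both of secretory granules, had 0.12 and 0.08. Rab3a, Rab3c and Rab15, best known from neurons, were below the floor on all their probe sets in both pools.

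SNAREs of the plasma membrane were mostly alike in the pools where signals were strong. Vamp3, the VAMP of constitutive and recycling vesicles, had 25042 in sham and 24713 in ligated arteries, a log2 ratio of -0.02. Snap23, the SNAP-family protein of non-neuronal cells, had 5935 and 6269.8 on one probe set and 2216 and 2241 on the other, with ratios of 0.08 and 0.02. Vamp2 had 1915 and 1925 on one probe set and 1463 and 1354 on the other (0.01 and -0.11). Stx4, their partner syntaxin at the surface, was lower, with 2387 and 1924 (-0.31).

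Stx1a, the syntaxin of neuronal and endocrine exocytosis, had 1227 in sham and 646 in ligated arteries, a log2 ratio of -0.93 or 1.90-fold lower. That value comes from a probe set whose identifier marks it as incomplete, and the other probe set of the gene had 234.9 and 234.7, below the floor and alike in both pools. Of other genes known from neurons, Snap25 and Snap91 gave little signal, while Vamp2, given above, was measured on both its probe sets. Snap25 was below the floor in both pools on 3 of its 4 probe sets and had 137 and 359 on the other, and the synaptic clathrin adaptor gene Snap91 had 42.9 and 46.2. Of the 11 nerve markers on the array 6 had a value, 3 above and 3 below 0, and Dbh, Nefl, Nefh, Chgb and Scg2 were below the floor. The median log2 ratio of the nerve list was 0.00. Signals were summed over the probe set of highest level after the floor for each gene, or the last by name where all were below it. The sum for the nerve list was 24499 in sham and 20584 in ligated arteries. Npy alone gave 20118 and 16002 of this, and the sums without it were 4381 and 4582. The part of nerve RNA in the Stx1a value was not tested.

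The largest bound among members belonged to Vamp5, a VAMP found in muscle and at the plasma membrane. One of its probe sets read 288 with sham, under the floor, and 875.5 with ligation, at least 2.65-fold higher. Its measured probe set had 1431 and 1755, a log2 ratio of 0.29, so both were higher but by different amounts. Vamp1 was lower on its measured probe set, with 759 and 666 (-0.19), and on the other it had 387 and 165, the latter below the floor. Stx3, of apical and granule secretion, was below the floor in both pools.

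**Figure D3:**
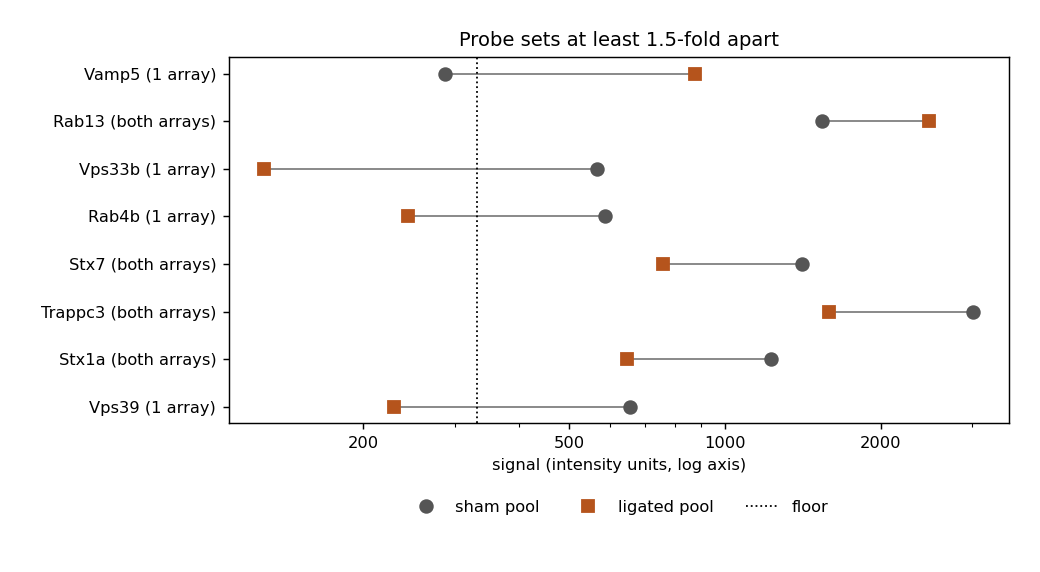
Signal in intensity units (log x axis) in sham (circles) and the ligated pool (squares) for the 8 member probe sets at least 1.5-fold apart. The dotted line is the floor of 330.9; Vamp5 and Rab13 are higher and the other 6 lower in ligated arteries, and 4 of the 8 have a signal below the floor in 1 pool.

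The endocytic and recycling Rabs gave 0 of 7 genes past 1.5-fold by gene, beside 3.13% higher and 5.04% lower of all genes with a value. The closely related Rab11a and Rab11b had ratios of opposite sign. Rab11a, the main GTPase of recycling endosomes, was lower on all 3 probe sets. Its signals for sham and ligated arteries were 12038.5 and 8658 on the first, 9203 and 7117 on the second, and 7141 and 6433 on the third, with log2 ratios of -0.48, -0.37 and -0.15. Rab11b was higher on both measured probe sets, with 2057 and 2757 (0.42) and with 977 and 1108 (0.18), and was below the floor on its remaining one. The 2 genes did not overlap in ratio, although probe sets of 1 gene can share probes and are not replicates, and the difference was not tested.

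The Rabs of early endosomes differed less. Rab5a, which drives fusion of early endosomes, had 5637 and 5364 on one probe set and 2553 and 2718 on the other, ratios of -0.07 and 0.09. Rab5b had 6665 and 5549 (-0.26). Rab7a, the Rab of late endosomes and lysosomes, had 2411 and 2654 (0.14).

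Rab4b, of fast recycling, had 1047 and 1164 on its measured probe set (0.15) but 586 and 243 on the other, at least 1.77-fold lower, so its direction was not settled. Rab4a had 342.5 in sham, just above the floor, and 234 in ligated arteries, below it, and Rab14 was below the floor in both pools.

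Among SNAREs of endosomes and the Golgi, Stx7 was the member past the threshold. Stx7, the syntaxin of late endosome and lysosome fusion, had 1412 in sham and 760.2 in ligated arteries, a log2 ratio of -0.89 or 1.86-fold lower, on its only probe set. Its usual partner Stx8 did not share this: the probe sets had 2729.9 and 2831 and 1176 and 1347, with ratios of 0.05 and 0.20. Stx12, an endosomal syntaxin of recycling, went opposite ways, with 7148 and 8381 (0.23) and, on a shared probe set, 962 and 786 (-0.29). Stx6 and Snap29 were below the floor in both pools.

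Vps genes act in complexes, and the ratios within the complexes represented here differed in size, each from 1 probe set and with no test of the difference. For the retromer, which returns receptors from endosomes to the Golgi, Vps26a had 448 in sham and 593 in ligated arteries (0.41), while Vps29 had 16057 and 16318 (0.02). For the tether that acts before lysosome fusion, Vps39 had 654 and 229.5 on its only probe set, which is at least 1.98-fold lower because the second value is below the floor. Vps33a of the same tether had 1233 and 1077 (-0.19) on 1 probe set and lay below the floor on 2 others.

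Vps33b, a relative of Vps33a, had probe sets that disagreed. It had 3008 and 2716 on the brightest and 926 and 1051 on the next, log2 ratios of -0.15 and 0.18. On another it had 565 and 129, at least 1.71-fold lower, and 2 more lay below the floor. Vps4a, the ATPase that releases the ESCRT machinery from membranes, had 6220.1 and 7625 (0.29), and Vps45, a regulator of endosomal SNAREs, had 3829.6 and 4168 (0.12).

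Bounded values at least 1.5-fold from 0 thus came from 1 higher member probe set, of Vamp5, and 3 lower ones, of Vps39, Rab4b and Vps33b, among the 7 that were bounded (14.3% and 42.9%). Over all 567 bounded probe sets 7.41% were that much higher and 12.2% that much lower. For 3 of these 4 genes other probe sets were measured, and none of those was past 1.5-fold.

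**Figure D4:**
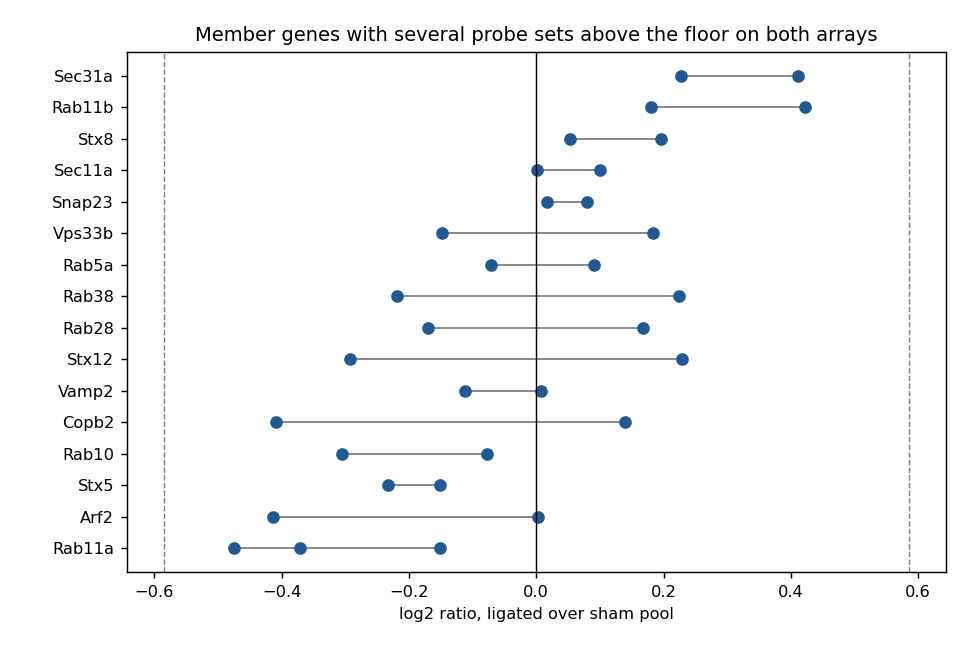
Log2 ratio of ligated over sham (x axis) of each measured probe set for the 16 member genes that have more than 1 (y axis); lines join the lowest and highest probe set of a gene, and dashed lines mark 1.5-fold. Rab11a lies wholly below 0 and Rab11b and Sec31a wholly above it, while 8 of the 16 genes cross 0.

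The agreement between probe sets bears on how far single ratios can be read. For 16 member genes more than 1 probe set was measured, 33 probe sets in all, and the SD of the ratio within a gene was 0.21. In 8 of the 16 genes the probe sets went opposite ways, beside 42.8% of all 789 such genes on the array. The genes on which they agreed included Rab11a, Rab10 and Stx5 on the lower side and Rab11b, Sec31a, Stx8 and Snap23 on the higher side. Of these, Sec31a rests wholly, and Rab11a, Rab11b, Stx5 and Stx8 in part, on probe sets marked as shared or incomplete. The measured probe sets of Rab11b were annotated to the same sequence, as were those of Stx8 and some of Rab11a, so their agreement says less. Rab13, Trappc3 and Stx7 had 1 probe set each, so this comparison could not be made for them.

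The remaining members gave small values. Rab3ip, an activator of Rab8, had 599 and 501 for sham and ligated arteries (-0.26), and Rab11fip5, which binds Rab11, had 1521 and 1741 (0.19). Rab12 had 4007 and 4050.1 (0.02), and Rab28 and Rab38 each had probe sets of opposite sign, at 0.17 and -0.17 and at 0.22 and -0.22. Sec14l3, a lipid-binding protein gene taken in by its symbol, had 439.7 and 406 (-0.12), and Rab29 was below the floor in both pools.

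The partner genes were those of the same pathway that the naming rule leaves out. From a list of 115 regulators, adaptors, tethers and cargo receptors, 80 were on the array and 59 had a value. Their median log2 ratio was -0.05, with 26 above and 33 below 0, and 4 (6.78%) were at least 1.5-fold higher and 2 (3.39%) lower, where 3.13% and 5.04% of all genes with a value were. Of the 4 higher genes Scamp2 was measured in both pools, and Dnm1, Rabep2 and Sv2b were bounds. Gdi2, which extracts Rab proteins from membranes, had 9688 and 14059.7 for sham and ligated arteries, a log2 ratio of 0.54, inside the threshold. Scamp2, a carrier membrane protein of recycling and secretory vesicles, had 692 and 1495 (1.11).

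Partners known from regulated secretion had low signals and went both ways. Syt5, a calcium-sensing synaptotagmin, had 775 in sham and 347 in ligated arteries (-1.16), and Cplx1, a complexin that clamps SNAREs, had 707 and 396 (-0.84). Amph, an adaptor of clathrin-mediated uptake, had 636 and 474 (-0.42), while Syt11 had 434 and 599.9 (0.47).

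Markers of other cell types in the wall differed between the pools. Of 9 adipocyte markers on the array 8 had a value, 6 above 0, and Plin1 was below the floor. Lep and Adrb3 were below 0. The summed signal of the adipocyte list was 77548 in sham and 112648 in ligated arteries, and 66323 and 83166 without Scd, its brightest gene. Of 8 mast cell markers 5 had a value, 4 above 0 and Tpsb2 below, and Hdc, Kit and Ms4a2 were below the floor. The summed signals were 10976 and 18148, of which Cma1 alone gave 3738 and 8609, and the sums without it were 7237.5 and 9539. Of 7 macrophage markers 6 had a value, 5 above 0, with summed signals of 46864 and 58817, and Csf1r was below the floor. Of the 8 smooth muscle markers 6 were below 0, with summed signals of 380814 and 368528, and 278158 and 253521 without Tagln, the brightest. Of 7 fibroblast markers, all with a value, 6 were above 0. Of 5 lymphocyte markers with a value 3 were below 0, and the 2 Schwann cell markers with a value were above 0. Of the 6 endothelial markers with a value 2 were above and 4 below 0, with summed signals of 9149 and 8468. Icam2 and Nos3 were at least 1.5-fold lower and Edn1 at least 1.5-fold higher, where 5.04% and 3.13% of all genes with a value were. At the same threshold 2 adipocyte, 2 mast cell, 1 macrophage and 1 nerve marker were higher. Kcnmb1 of smooth muscle and 1 lymphocyte marker were lower. The measured probe sets of Nos3 went both ways. The part of any of these cell types in the members' values was not tested.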

How the data were processed

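Total RNA of 2 pools was read on 1 array each. The authors deposited a linear intensity for each probe set, and how it was scaled and background-corrected is not stated in the labels or files. The chip type, the cRNA amounts and the fluidics modules are per the file headers. Medians over all probe sets were 557 and 525.7, and the values were used as deposited.

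The 59 control probe sets were left out. The floor was set at the 40th percentile over the arrays together, 330.9, and lower values were raised to it before log2 was taken, so ratios near it are compressed. A gene's value was the median log2 ratio over its probe sets above the floor on at least 1 array. Symbols came from the platform annotation (7006 probe sets with 1, 308 with several, 1426 with none), and 76 of 76 member gene identifiers were found in RefSeq's GRCr8 gene table, with 0 symbols changed. No coordinates are given because no build is named for the array.

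Named genes were members or bounds at least 1.5-fold apart and, in each role group, up to 4 of largest ratio and 3 of highest level, with all genes of small groups, and the 6 partner genes of largest ratio measured on both arrays. Other members were added, after their values were seen, to account for each role. The members, lists and thresholds were chosen with earlier results of these data known, and the secretory and endocytic sets were joined after seeing the data. The calculation was tested on simulated data and run with numpy 2.4.6, pandas 2.3.3 and statsmodels 0.14.6, with 8 alternatives.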

Additional observations from a re-analysis of the deposited data

How the results depend on the processing

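The 16 medians covered all member genes, 11 role sets, the secretory, endocytic and syntaxin sets and the partner list. Under all 8 alternatives each moved by less than 0.30, the scatter between probe sets of a gene, with 0 exceptions in 128 values. Signs near 0 turned as stated above. This bar is the spread of single probe set ratios and is wide for medians near 0, so passing it shows little. The endocytic Rab median passed although it went from -0.05 to -0.32 with the lower floor. The median of all genes moved from -0.02 to 0.01 after quantile normalization. With the floor at the 20th percentile, 97 member probe sets were measured. Of these, 5 were at least 1.5-fold higher and 8 lower, where 6.46% and 8.99% of all measured probe sets were. With the floor at the 60th percentile 1 of 61 was lower (Trappc3). With shared or incomplete probe sets left out 1 of 58 was lower (Stx7). In both settings the others were not among the probe sets counted. Under quantile normalization, the loess and the offset of 100 units the counts stayed at 1 higher and 3 lower, the same genes each time. Of 416 values of named genes, 13 moved by more than the scatter and 0 that were past 1.5-fold changed sign. The 2 scalings turned the sign of 4 named genes (Arf4, Rab28, Stx12 and Vps29), each within 0.06 of 0. For Vamp5, the gene value of 0.85 was 0.29 on the measured probe set alone. For Rab4b it turned from -0.34 to 0.15. The other genes with a value that moved were Stx1a, at -0.46 with the floor at the 20th or the 60th percentile, Vps39, at -1.51 with the lower floor, Vamp1, from -0.21 to -0.71 with the lower floor and -0.52 with the offset, Rab34, from -0.06 to -0.44 with the lower floor, and Vps33b, from -0.15 to -0.46 without shared probe sets. The files hold no detection calls, so dim signals cannot be told from background. No paired analysis was possible because each group has 1 array.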

Other observations

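Of the probe sets with several annotated symbols, 2 name Rab1b and Rab1a together and were left out by the rule. One read 760.7 in sham and 602 in ligated arteries, a log2 ratio of -0.34, beside -0.18 for the Rab1a probe set described above, and the other was below the floor in both pools.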
